A study of Homo sapiens with 6 samples.

Results

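Cytosolic ribosomal protein genes encode the protein components of the ribosome that translates nuclear messages. They were chosen by name: every probe set whose single platform symbol was RPL or RPS with a number, RPLP0, RPLP1, RPLP2 or RPSA, with RPS6 kinases and pseudogenes left out. Where a gene had several such probe sets, the brightest by its mean over the 6 arrays stood for it. The rule found 58 genes on 96 probe sets, of 11963 genes with a probe set of 1 symbol. Of these, 51 were standard components, 20 of the small subunit and 31 of the large subunit. The other 7 were paralogs, that is, second copies of a standard gene: RPL3L, RPL10L, RPL26L1, RPL36AL, RPL39L, RPS4Y1 and RPS27L. The rule used no measured difference between the groups, only the mean signal over all arrays.

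The arrays were Affymetrix expression arrays of total RNA from cells that the labels give as HSC2, an established oral carcinoma cell line. Per the labels, 3 arrays came from cells stably transfected with a cDNA of full-length wild-type MALT1, a paracaspase of the NF-kappaB pathway. The other 3, labelled mock, came from cells that carried the vector alone. Both lines grew in serum-containing DMEM medium. The labels do not say whether each transfected line was 1 clone or a pool, nor whether replicates were separate cultures, so a p-value here reflects only how these samples varied, and that variation may be technical. In bulk RNA, fewer cells of a type and less RNA per cell cannot be told apart.

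Each ribosome needs its proteins in near equal numbers, and cells draw them from long-lived, highly abundant messages. In vertebrates these messages start with a C followed by a run of pyrimidines, the 5' terminal oligopyrimidine (TOP) tract, through which mTORC1 and the RNA-binding protein LARP1 govern their translation. Most human ribosomal proteins have 1 expressed gene, and paralogs are the exceptions, several of them expressed chiefly in testis or muscle.

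The annotated starts are shown for the tract that most standard members have there and most matched paralogs lack. RefSeq promoters of build GRCh38.p14 were matched by symbol for 50 of the 58 genes, 45 standard and 5 paralogs. The lines give 30 bases, 10 before the annotated start and 20 from it, with a C at the start and the pyrimidine run that follows it in capitals. RPS23 and RPL18 show the common form, RPS6 and RPL39 longer runs, and RPL29 the standard member that passed the test below. RPS27 with RPS27L and RPS4X with RPS4Y1 are pairs of a standard gene and its paralog; in the first the standard gene has the tract at its annotated start, and in the second the paralog.
RPS23, chr5:82278335-82278364, minus strand: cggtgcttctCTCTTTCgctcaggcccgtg
RPL18, chr19:48619159-48619188, minus strand: agcccgttctCTCTTTCCggacctggccga
RPS6, chr9:19380217-19380246, minus strand: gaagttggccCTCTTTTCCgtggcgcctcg
RPL39, chrX:119791611-119791640, minus strand: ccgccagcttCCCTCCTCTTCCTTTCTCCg
RPL29, chr3:51995876-51995905, minus strand: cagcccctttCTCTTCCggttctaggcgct
RPS27, chr1:153990752-153990781, plus strand: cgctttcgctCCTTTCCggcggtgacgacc
RPS27L, chr15:63157458-63157487, minus strand: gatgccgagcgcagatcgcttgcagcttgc
RPS4X, chrX:72277229-72277258, minus strand: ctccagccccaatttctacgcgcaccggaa
RPS4Y1, chrY:2841592-2841621, plus strand: agaacagattCTCTTCCgtcgcagagtttc

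A C at the annotated start with at least 4 pyrimidines after it was found at 33 of the 45 standard members matched, 73.3%. Over all 27305 genes of the promoter set the share was 5.14%, and over its 35116 promoters 4.07%. Among the 5 paralogs it was found at RPS4Y1 alone, and RPS27L, RPL10L, RPL26L1 and RPL36AL did not have it at an annotated start. The runs were 5 to 19 bases long, with a median of 8, and the longest was that of RPL39. Allowing the run to begin within 5 bases of the annotated start raised the share to 39 of 45 standard members and 2 of 5 paralogs. Over all genes it was then 25.2%, and over all promoters 21.1%. Other motifs were searched on both strands between 250 bases before and 50 after the start. CCGGAAGT, an ETS-type sequence, was present at 9 of 45 standard members and 4.95% of all genes. AANATGGCG, a YY1-type sequence, was present at 6 of 45 and 3.85% of genes, and TATAAA at 3 of 45 and 14%. These matches describe letters in a window and nothing about binding.

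Before the members' values, the labels were checked. The 2 called probe sets of MALT1 were lower, not higher, on the arrays labelled MALT1: 120 ± 11.3 (SD, n = 3) against 254 ± 25 on mock arrays, and 182 ± 10.2 against 253 ± 4.34. The remaining probe set differed by -0.28 on the log2 scale, with an adjusted p of 0.0969. Whether these probe sets see the transfected cDNA was not tested, and directions below are those of the arrays as labelled. Squamous epithelial markers, which define the labelled tissue, were lower on 11 of 13 measured and higher on none (median log2 difference -2.47), with summed signals of 24788 to 27522 against 56806 to 66477. Markers of luminal breast epithelium were higher on 20 of 21 and lower on none (median 4.89), with summed signals of 83864 to 92476 against 9259 to 9968, and 9 of them were at background on all mock arrays. Whether both groups are of the labelled line, or of one line at all, was not tested. Every difference below, those of RPS27L and RPS4Y1 included, is one between these arrays, and an effect of MALT1 and a difference between cell lines cannot be told apart in it.

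The standard ribosomal protein genes differed little between the groups. Of the 51, 1 passed as higher on the arrays labelled MALT1, RPL29, and none passed as lower (limma, Benjamini-Hochberg adjusted p under 0.05 over 22215 probe sets). At an unadjusted limma p under 0.05, 5 of the 51 passed, all of them higher. The count was 8 without mock replicate 3 and 1 without any 1 of the other 5 arrays. Over the whole array at least 35.6% of probe sets passed at that p, the share with an adjusted p under 0.05. An adjusted p is never below the unadjusted one. With dim probe sets left out before the fit, RPL18, RPL37, RPS27 and RPS29 also passed as higher (adjusted p of 0.0227 to 0.0286), in a fit where 67.9% of probe sets passed. Over the whole array 35.6% of probe sets passed, 18.6% higher and 17% lower, and 40.4% of genes when each was taken by its brightest probe set. The differences of the 51 genes, as log2 MALT1 minus mock, ran from -0.14 for RPLP2 to 0.31 for RPL29, with a median of 0.13 and an interquartile range of 0.04 to 0.23. RPLP2 and RPL27A, the standard members with the lowest differences, had low signals, with means of 116 and 470 on the mock arrays. By contrast, 50 of the 58 members had a mean signal above 7500, and the lowest difference among those was -0.10. All probe sets had a median of 0.08 and an interquartile range of -0.45 to 0.61. The difference was positive for 42 of the 51 genes with the arrays scaled as deposited, but for 25 when each array was centred on its median and for 26 after quantile normalization. Those settings moved the median of all probe sets by -0.13 and -0.12, so the small positive median of the standard members has no settled direction.

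**Figure D1:**
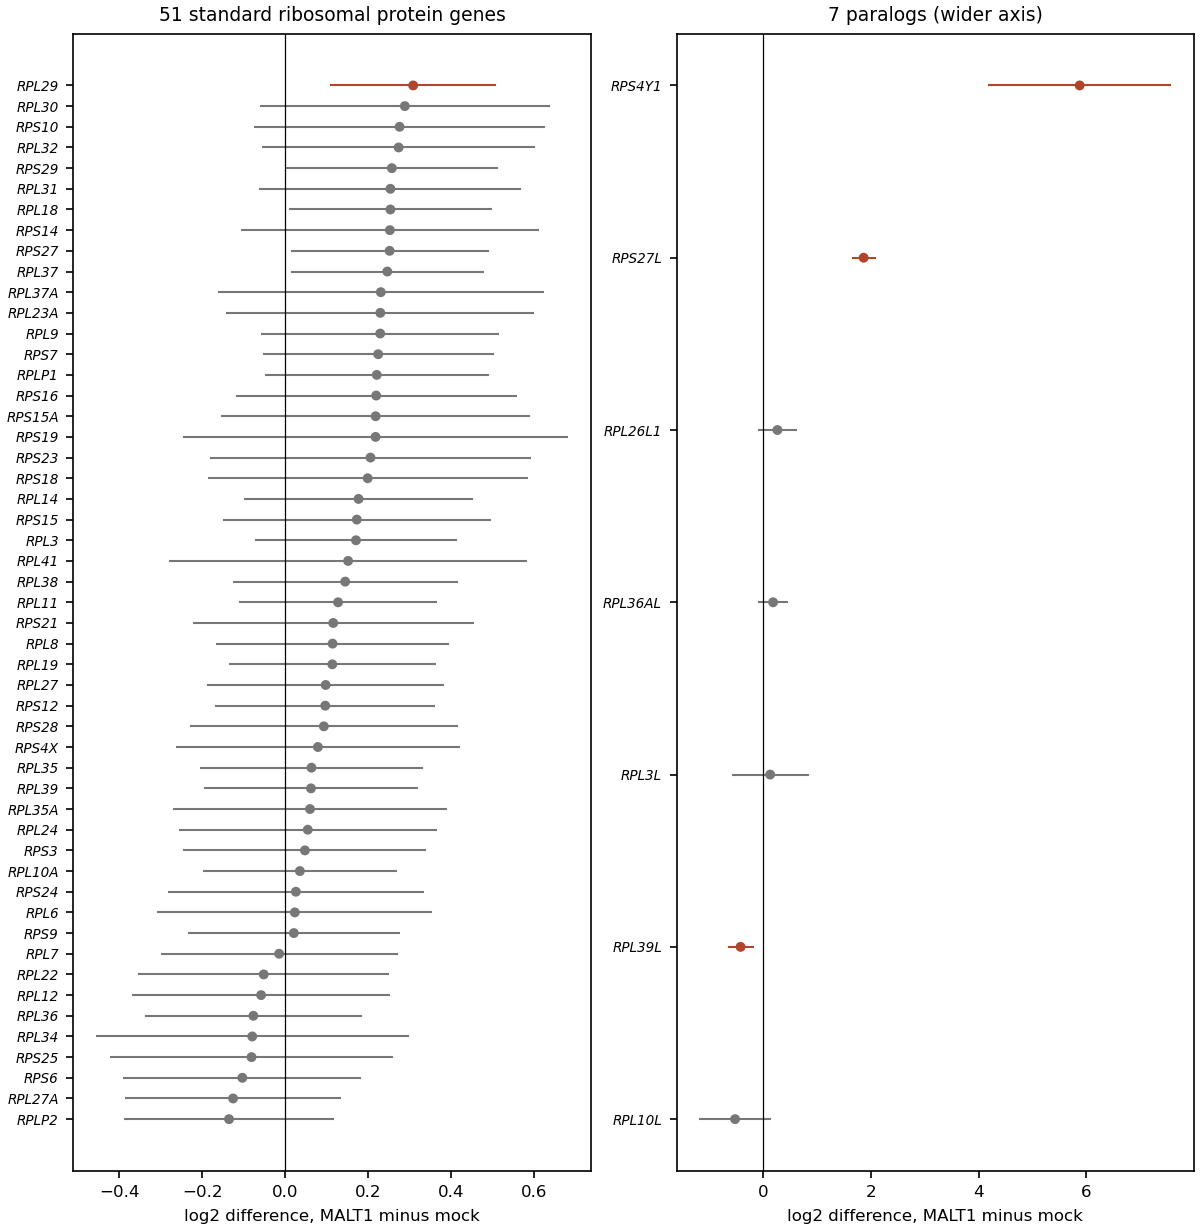
The log2 difference between the 3 arrays labelled MALT1 and the 3 labelled mock is plotted for each of the 58 genes with its 95% interval, in red where the adjusted p was under 0.05; the right panel has a wider axis for the 7 paralogs. All 51 standard genes lie between -0.14 and 0.31, while the paralogs lie between -0.52 and 5.87, the last a fitted value against a mock group at background.

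The intervals bound the difference only for the brightest probe set of each gene, with the arrays scaled as deposited. For all 51 standard genes the 95% interval of the log2 difference lay within 1 of 0, and for 34 within 0.5 of 0. The lowest bound was -0.45 and the highest 0.68. Some further probe sets of the same genes differed by more, such as those of RPS21 (0.87) and RPS6 (2.30) described below. The groups did not overlap for 12 of the 51, each higher on the arrays labelled MALT1; over the whole array 49.7% of probe sets did not overlap. The 50 members with a mean signal above 7500 can be set beside the 340 other probe sets as bright, which share their place on the intensity scale. Those 340 are not free of ribosomal protein genes. They include 45 probe sets that carry a ribosomal protein symbol together with another symbol, and 2 of these 45 passed. Of the 50 members 1 passed, against 32.1% of those 340, and 13 did not overlap, against 63.8%. The median size of the difference, without its sign, was 0.135 over the standard members, 0.249 over the other bright probe sets and 0.535 over all probe sets. A difference of at least 1 in either direction was found for 0% of the standard members, 5.29% of the other bright probe sets and 26.3% of all probe sets.

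**Figure D2:**
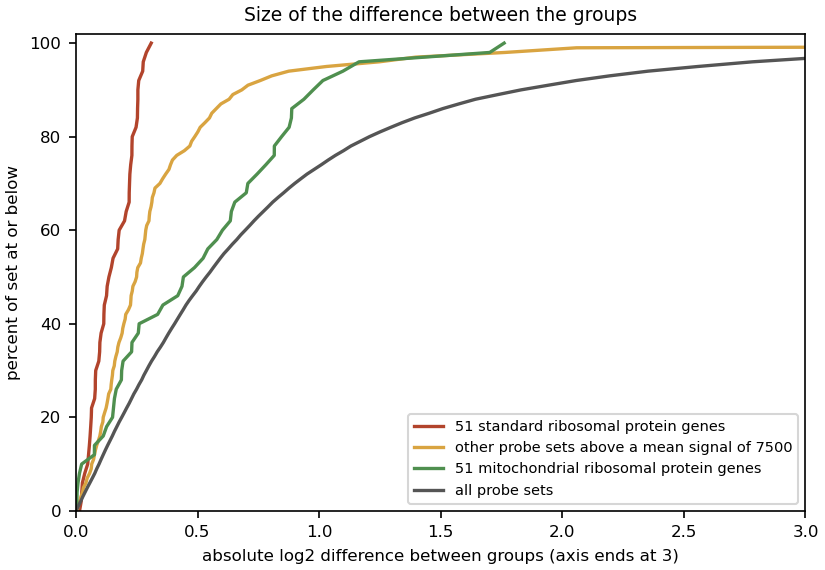
Cumulative share of genes or probe sets, in percent, at or below each absolute log2 difference between the groups, for the standard ribosomal protein genes, other probe sets above a mean signal of 7500, mitochondrial ribosomal protein genes and all probe sets. The curve of the standard cytosolic genes ends at 0.31, and the others run past 1. The other probe sets above 7500 include 45 with a ribosomal protein symbol beside another symbol.

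The arrays moved the standard members together. Their median deviation from each gene's mean over the 6 arrays was 0.01, 0.02 and 0.15 on MALT1 replicates 1, 2 and 3, and -0.18, -0.12 and 0.10 on mock replicates 1, 2 and 3, on the log2 scale. On mock replicate 3, 43 of the 51 genes were above their own mean, close to the 44 on MALT1 replicate 3, whereas on mock replicates 1 and 2 it was 1 and 7. Replicate 3 was thus the highest of its group under both labels. The other bright probe sets, of which 45 carry a ribosomal protein symbol beside another symbol, deviated alike. Their medians were 0.03, 0.05 and 0.14 on the MALT1 arrays and -0.18, -0.11 and 0.05 on the mock arrays. The ratio of 3' to 5' signal of ACTB, a measure of RNA and labelling quality, was 3.60, 3.88 and 4.46 on the MALT1 arrays and 3.59, 3.94 and 3.98 on the mock arrays. Its part in the shared movement was not tested.

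**Figure D3:**
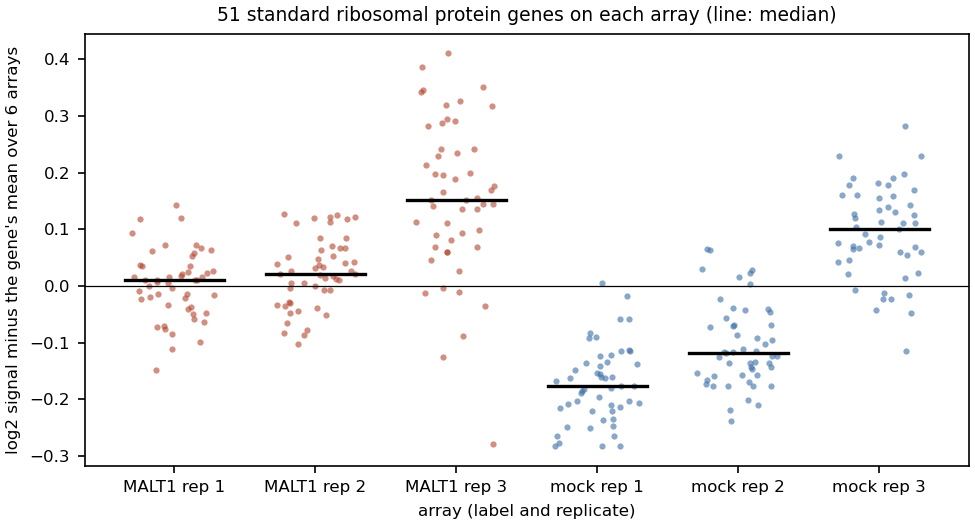
Log2 signal minus the gene's mean over the 6 arrays, 1 point per standard ribosomal protein gene on each array, with the median as a line. Mock replicate 3 lies at 0.10, above the other mock arrays at -0.18 and -0.12, and MALT1 replicate 3 is highest at 0.15.

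Each array was therefore also centred on the median of the 58 members, a setting chosen after the values were seen. The standard members then ran from -0.27 to 0.17 relative to one another. None of the 51 passed with limma, nor did any at an unadjusted p under 0.05 (0 of 51), while 29.4% of all probe sets passed. Centring on the median of the 51 standard members alone brought their median SD within groups from 0.122 to 0.0676 on the log2 scale. Because the members set the centre, a smaller SD and smaller differences among them follow in part from the centring itself. RPS27L and RPS4Y1 still passed as higher and RPL39L as lower.

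The 12 standard members whose groups did not overlap were RPS7, RPS10, RPS27 and RPS29 of the small subunit and RPL3, RPL18, RPL29, RPL30, RPL31, RPL32, RPL37 and RPLP1 of the large subunit. RPL18 had signals of 12337, 12286 and 12634 on the MALT1 replicates and of 9576, 10473 and 11252 on the mock replicates, a log2 difference of 0.25 ± 0.10 (SE; limma adjusted p = 0.1003). RPL37, a zinc-binding protein, had 15784, 16092 and 16480 against 12863, 13275 and 14672 (0.25 ± 0.09, limma adjusted p = 0.0956). RPS29, another zinc-binding protein, had 16325, 16456 and 18193 against 13320, 14051 and 15277 (0.26 ± 0.10, limma adjusted p = 0.109). In each of these genes mock replicate 3 was the highest mock array and lay closest to the MALT1 arrays. The 9 standard members with a negative difference were RPS6, RPS25, RPL7, RPL12, RPL22, RPL27A, RPL34, RPL36 and RPLP2. RPS25, known for its part in translation from internal entry sites, had 13822, 14666 and 11108 against 13538, 13510.1 and 14567. Here MALT1 replicate 3 was the lowest of the 6 arrays, the reverse of most members, and the difference was -0.08 ± 0.13. RPL27A had 425, 453 and 411 against 431, 469 and 509, and RPL7 had 18023, 18729 and 20338 against 17645, 18790.4 and 21334. Both overlap between the groups.

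In the small subunit, which reads the message, none of the 20 members passed with limma (2 at an unadjusted p under 0.05), and their median log2 difference was 0.19. RPS27, a zinc-binding component whose paralog is described below, had signals of 14235, 14709 and 15593 on MALT1 replicates 1, 2 and 3 and of 12000.3, 12026 and 13385 on the mock replicates. Every MALT1 array was above every mock array, by a log2 difference of 0.25 ± 0.09 (SE; limma adjusted p = 0.0967). The 5 measured members on the list of the decoding centre and head, RPS3, RPS15, RPS18, RPS19 and RPS23, had differences of 0.05 to 0.22 and adjusted p values of 0.364 to 0.793. RPS23, which lies at the decoding centre, had signals of 20145, 20014 and 24329 against 16944, 17236 and 21873. Its highest mock array exceeded 2 of the MALT1 arrays, so the groups overlap. RPS19, the gene most often mutated in Diamond-Blackfan anaemia, had 16287, 16460 and 22397 against 14579, 14285 and 18306, which also overlap. RPS6, the substrate of the S6 kinases, had 15613, 15405 and 16201 against 15325, 16485 and 19112, a difference of -0.10 ± 0.11.

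In the large subunit, which joins the amino acids, 1 of 31 members passed, and the median was 0.11. RPL29, a small basic protein, had signals of 9474, 9358 and 9831 on the MALT1 replicates and of 7593, 7615 and 7926 on the mock replicates. The groups did not overlap, and the log2 difference was 0.31 ± 0.08 (limma adjusted p = 0.0316). Its other single-symbol probe set gave 0.32 ± 0.08 (adjusted p = 0.0347). The call of RPL29 was lost when any 1 of the 6 arrays was left out (limma adjusted p of 0.0643 to 0.106). It was also lost with each array centred on its median (0.18, adjusted p = 0.26) and after quantile normalization (0.20, adjusted p = 0.0873). The replicate number as a block removed it too.

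The stalk, which recruits and activates the GTPase translation factors, was measured by RPLP1 and RPLP2. RPLP1 had signals of 15512, 16340 and 16628 on the MALT1 replicates and of 12835, 13417 and 15445 on the mock replicates, a difference of 0.22 ± 0.11 with no overlap (limma adjusted p = 0.177). RPLP2 had 105, 107 and 104 against 106, 115 and 127, which overlap (-0.14 ± 0.10). These signals are far below those of RPLP1, and whether the probe set reads the main RPLP2 message was not tested. RPL11, which with RPL5 and 5S rRNA forms the particle that can bind MDM2, had 11447, 11528 and 11433 against 10083, 9987 and 11481. Mock replicate 3 lay among the MALT1 arrays, and the difference of 0.13 ± 0.09 did not pass (adjusted p = 0.363). RPL5 and RPLP0 were not among the members, since no probe set carries either symbol alone.

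The 5 measured members at the exit tunnel, through which the nascent chain leaves, were RPL19, RPL23A, RPL31, RPL35 and RPL39. Their differences ran from 0.06 to 0.25, and none passed. RPL39, a very short protein of the tunnel wall, had 16142, 16756 and 17103 against 14842, 15532 and 17616, which overlap. Its difference of 0.06 ± 0.10 turned to -0.066 with each array centred on its median.

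Of the 7 paralogs, 2 passed as higher, 1 as lower and 4 did not pass. Over all genes by their brightest probe set 40.4% passed, so a count of 3 in 7 is near the background. Over all 58 genes that made 3 higher and 1 lower, with 54 not passed, and 17 genes whose groups did not overlap.

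RPS27L, a near copy of RPS27 and a known target of p53, had signals of 5171, 5248 and 5495 on the MALT1 replicates and of 1403, 1496 and 1472 on the mock replicates. The lowest MALT1 array was far above the highest mock array. The difference was 1.86 ± 0.08 on the log2 scale, 3.64-fold (limma adjusted p = 0.000115), and it passed under every setting that gave it a value. RPS27 itself differed by 0.25, as given above.

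RPS4Y1, the Y-linked copy of RPS4X, had signals of 463, 343 and 497 on the MALT1 replicates and of 5.56, 2.23 and 17.5 on the mock replicates. All 3 mock arrays were at or below 17.6, the brightest value that a trp spike-in control (a bacterial gene) gave on any array, so its level there is only bounded. It was at least 24.3-fold higher on the arrays labelled MALT1, the bound taking 17.6 for the mock arrays (limma adjusted p = 0.00208). RPS4X, the X-linked gene that encodes the same position in the ribosome, had 15992, 16249 and 17918 against 14380, 14799 and 18552. Its groups overlap, with a difference of 0.08 ± 0.13.

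RPL39L, a copy of RPL39 expressed chiefly in male germ cells and some cancers, had signals of 595, 600.2 and 536 on the MALT1 replicates and of 765, 761 and 792 on the mock replicates. Every MALT1 array was below every mock array, by -0.42 ± 0.09 on the log2 scale (limma adjusted p = 0.0169). The call was lost without mock replicate 1, 2 or 3 (limma adjusted p of 0.0544 to 0.0579) and with the replicate number as a block. RPL10L, a testis-expressed copy of RPL10, had 101, 67.0 and 116 against 110, 155 and 140, and its difference of -0.52 ± 0.26 did not pass (adjusted p = 0.185).

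**Figure D4:**
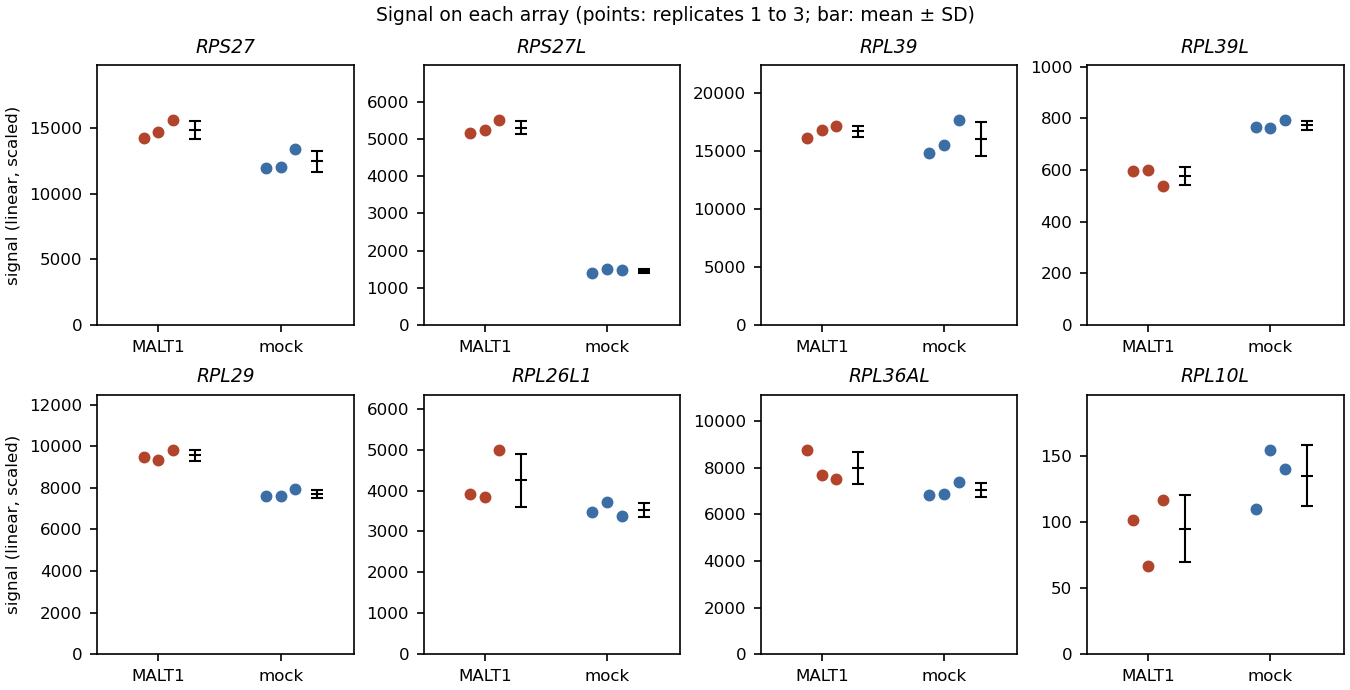
Scaled linear signal on each array for 8 genes, with points for replicates 1 to 3 and bars for the mean and SD of each group; each panel has its own axis from 0. RPS27L separates at 5305 against 1457 and RPL39L at 577 against 773, while RPL39 and RPL10L overlap.

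The remaining paralogs did not pass. RPL26L1, which differs from RPL26 by few residues, had signals of 3905, 3836 and 4998 against 3465, 3712 and 3377, with no overlap (0.26 ± 0.14, limma adjusted p = 0.21). RPL36AL, an intronless copy of RPL36A, had 8783, 7704 and 7517 against 6848, 6896 and 7381, also with no overlap (0.18 ± 0.10, adjusted p = 0.237). RPL3L, the striated muscle copy of RPL3, was at background on all 6 arrays, with signals of 1.03 to 2.61. RPL3 had 10595, 11039 and 12031 against 9489, 9881 and 10511 (0.17 ± 0.10, adjusted p = 0.24), and its groups did not overlap.

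On the list of mTOR and TOP control, 4 of 11 measured genes were higher, 1 was lower and 6 did not pass. Their median log2 difference was 0.01. Over all genes by their brightest probe set 40.4% passed, so these counts are near the background. RPS6KB1, the S6 kinase, had 7433, 7352 and 6190 on the MALT1 replicates and 716, 896 and 779 on the mock replicates. It differed by 3.13 ± 0.13 on the log2 scale (limma adjusted p = 0.00011), while the RPS6 probe set with the highest signal differed by -0.10. MLST8, an mTOR partner, differed by 0.95 ± 0.14, and EIF4EBP1 by 0.52 ± 0.10. EIF4EBP2 differed by 0.66 ± 0.11 on its brightest probe set and by -0.083 on the brightest with no s or x in its identifier, so its direction depends on the probe set. MTOR itself was the one called lower, by -0.65 ± 0.18. LARP1 differed by -0.22 ± 0.08 (adjusted p = 0.0833).

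Other messages known to carry a TOP tract, those of translation factors among them, mostly did not pass. Of 15, 1 was higher, 1 lower and 13 did not pass, with a median of 0.11, while 40.4% of all genes passed. EIF4B, a helicase cofactor, was higher by 1.17 ± 0.08 (3273 ± 28.5 against 1456 ± 52.2, n = 3 each). EIF3F, an EIF3 subunit, differed by -0.76 ± 0.11 on its brightest probe set but by -0.14 when its probe sets were averaged, where it did not pass. EEF1A1, the elongation factor that brings aminoacyl-tRNA, differed by 0.15 ± 0.12, EEF2 by 0.09 ± 0.10 and NACA by 0.18 ± 0.10; none of the 3 passed.

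Among genes that start translation and build ribosomes, most did not pass, and the share that passed was near or below the 40.4% of all genes. Of 24 initiation factors 5 were higher, 5 lower and 14 did not pass, with a median of -0.01. EIF6, which keeps free large subunits from joining, was lower by -0.87 ± 0.09, and EIF2B4 was higher by 0.75 ± 0.08. Of 36 assembly factors 4 were higher, 7 lower and 25 did not pass, with a median of -0.11. DDX10, a helicase of small subunit assembly, was lower by -1.42 ± 0.08, and LAS1L and HEATR1 by -0.81 ± 0.08 and -0.73 ± 0.08. NHP2, a box H/ACA particle protein, was higher by 1.29 ± 0.12. Of 27 genes of RNA polymerases I and III, which make ribosomal RNA, 3 were higher, 7 lower and 17 did not pass, with a median of -0.10. POLR3K was higher by 2.18 ± 0.08 and GTF3A, the 5S gene factor, by 1.20 ± 0.10, while POLR1F was lower by -1.63 ± 0.11 and POLR1E by -1.06 ± 0.10.

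Of 12 genes of ribosome stress and quality control, 3 were higher, 1 lower and 8 did not pass, with a median of -0.15. The share of all genes that passed was 40.4%. CDKN1A, which like RPS27L is a known p53 target, had 1092, 1029 and 1059 on the MALT1 replicates and 262, 299 and 338 on the mock replicates (1.83 ± 0.12 on the log2 scale). MDM2, another p53 target and the partner of RPL11, had 95.5, 145 and 228 against 40.9, 71.6 and 70.6. Its groups did not overlap, but its difference of 1.30 ± 0.40 did not pass (limma adjusted p = 0.0573). GCN1 and RNF14, which act at stalled ribosomes, were higher by 0.91 ± 0.10 and 0.61 ± 0.10, and ASCC3, which splits collided ribosomes, was lower by -0.49 ± 0.08.

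Mitochondrial ribosomal proteins serve a separate ribosome and have nuclear genes too. Of 51 measured, 20 were higher, 9 lower and 22 did not pass, where 40.4% of all genes by their brightest probe set passed. Their median difference was 0.19, and the median size without its sign was 0.441, against 0.135 for the standard cytosolic members. MRPS34 was higher by 1.70 ± 0.09 and MRPL9 by 1.16 ± 0.08, while MRPS17 was lower by -1.76 ± 0.10 and MRPS31 by -1.10 ± 0.09. No test of this contrast between the lists was made.

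The genes beside the standard members in the RefSeq gene order differed about as often as genes in general. Order and not distance set the neighbours, so some can lie far off. RPS29 and the paralogs RPL36AL and RPL10L all had FKBP3 before and MGAT2 after them. Of 101 nearest measured neighbours of the 51 genes, 46 passed, 45.5%, against 40.4% of all genes. The median size of their difference was 0.631, against 0.535 over all probe sets and 0.135 over the standard members. A called neighbour with at least a 2-fold difference stood beside 22 standard members, whose own differences ran from -0.13 to 0.31. SPDEF, an epithelial transcription factor beside RPS10, was at least 48.5-fold higher on the arrays labelled MALT1, its mock signals of 4.57 ± 1.22 (SD, n = 3) being at background. RPS10 had 18797, 18725 and 23273 on the MALT1 replicates and 15549, 15927 and 18614 on the mock replicates, a difference of 0.28 ± 0.14. IGFBP2, beside RPL37A, differed by 5.26 ± 0.34 and RPL37A by 0.23. ENTPD3, beside RPL14, differed by -2.07 ± 0.11 and RPL14 by 0.18. Of the neighbours of RPS27L, TPM1 was higher by 0.61 ± 0.09 and RAB8B did not pass (-0.37 ± 0.23).

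**Figure D5:**
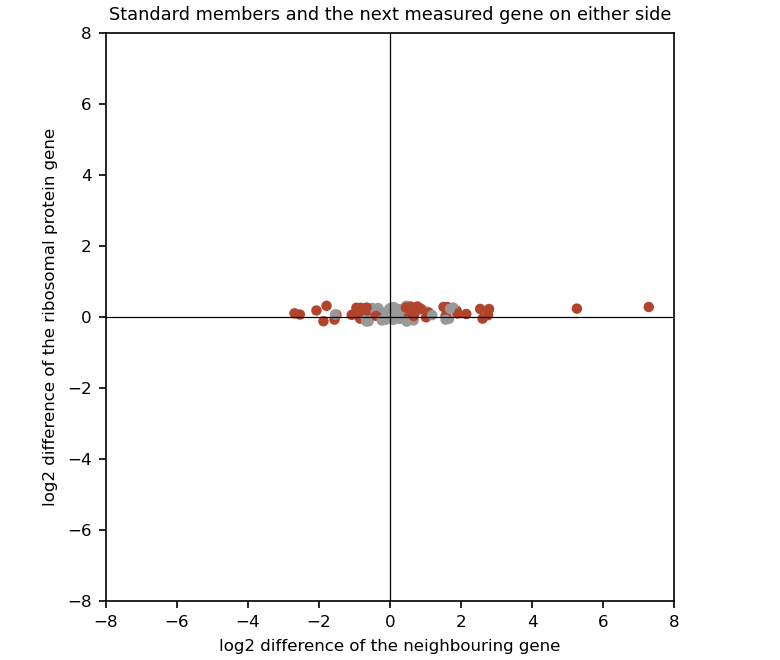
Log2 difference of each standard ribosomal protein gene on the vertical axis against that of its nearest measured neighbour on either side, on the same scale, with red points where the neighbour's adjusted p was under 0.05. The neighbours reach 7.29, a fitted value for SPDEF, which was at background on the mock arrays, and the members stay between -0.14 and 0.31.

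Several probe sets of one gene did not always give the same answer. The 23 members with more than 1 probe set had 38 further ones, of which 4 were higher and 2 lower. Over the whole array 35.6% of probe sets passed. None of the 15 further probe sets with a mean signal above 7500 passed. A second RPS21 probe set had 6377, 6327 and 6313 on the MALT1 replicates and 3165, 3483 and 3753 on the mock replicates (0.87 ± 0.10), while the brightest differed by 0.12 ± 0.13. A dim RPS6 probe set, with 202, 212 and 134 against 51.7, 32.4 and 26.9, differed by 2.30 ± 0.31, while the brightest gave -0.10. RPL22, an RNA-binding protein of the large subunit, had 2 further probe sets lower by -0.39 ± 0.09 and -0.38 ± 0.10, while its brightest overlapped between the groups (-0.05 ± 0.12). A further RPL31 probe set was higher by 0.37 ± 0.09 and the brightest gave 0.25 ± 0.12. Which transcripts each probe set reads was not tested, and of the 58 brightest probe sets 28 carry an s and 15 an x in their identifier, which mark probes shared between transcripts or with other genes.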

How the data were processed

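The deposited value table held 1 column per array, of linear signal intensity, which the authors had scaled so that the 2% trimmed mean of each array was 500.1 or 500.2; the software and its version are not given in the sources used here. Per the labels' protocols, biotin-labelled RNA was prepared by the standard Affymetrix method from total RNA. Of 22277 probe sets, 62 controls were left out. The 3 arrays labelled MALT1 and the 3 labelled mock were compared with limma 3.58.1 in R 4.3.3 (lmFit, eBayes) on log2(intensity + 1), with no filter, and p-values were adjusted by Benjamini-Hochberg over 22215 probe sets. A difference is on the log2(value + 1) scale, which understates changes of low genes, and ± after a difference is its standard error. Intensities have no read depth, and 3 arrays a group limit the precision. Symbols come from the platform annotation, which can be old. A probe set was taken as at background on a group when all its arrays were at or below 17.6, the highest trp control signal. The script was tested on simulated data.

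The members and all gene lists were chosen with earlier results of these data known, so lists are described by counts and medians only. Named were the members with the smallest adjusted p among those that passed without overlap, measured paralog pairs, stalk and 5S particle proteins, up to 4 genes of each other list by adjusted p, and MALT1; other members and further genes were named after their values were seen. Of 10 snoRNA host genes listed, none was measured by a probe set of 1 symbol. Whether replicate numbers pair the arrays is not known. The deviations of same-numbered arrays correlated at 0.0587, -0.0025 and 0.0607 over 11107 probe sets, which cannot exclude a pairing. Alternatives were another pseudocount, each array centred on its median, quantile normalization, dim probe sets left out, other choices of probe set, the replicate block, each array left out, and, added after the values were seen, centring on the ribosomal protein genes. No array batch is given in the sources used here.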

Additional observations from a re-analysis of the deposited data

How the results depend on the processing

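RPS27L kept its call under every setting that gave it a value, as did RPS4Y1, which the filter on dim probe sets removed with RPL3L. With that filter 6 members were higher instead of 3, RPL18, RPL37, RPS27 and RPS29 having joined RPL29 and RPS27L, while 67.9% of the 11107 probe sets left passed. With a mean over each gene's probe sets 6 were also higher. With the brightest probe set without s or x in its identifier (26 genes), 2 were lower, RPL22 and RPL39L. With that choice RPS4Y1, RPS6 and RPS21 were higher. RPS6 then differed by 2.30 instead of -0.10, and RPS21 by 0.87 instead of 0.12. Leaving out 1 array gave 2 higher in each case and 0 to 1 lower. With the replicate number as a block, 2 members were higher and 0 lower. The calls of RPL29 (limma adjusted p = 0.103) and RPL39L (limma adjusted p = 0.0784) were lost, and 5808 probe sets passed instead of 7917. Whether the numbers pair the arrays is not known. At an unadjusted limma p under 0.05, 1 member, RPL39L, was lower with the block and without mock replicate 1, 2 or 3. Of the standard members 1 passed at that p with the block, 0 with each array centred on its median and 3 after quantile normalization, against 5 as reported.

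Of the 42 standard members positive as deposited, 17 turned negative with each array centred on its median, 16 after quantile normalization and 17 centred on the ribosomal protein genes. Among genes named by the rule the turned signs were these. With each array centred on its median, RPL39 was -0.066, RPS4X -0.049, RPL3L -0.0015, RPL11 -0.0007 and RPL19 -0.015. After quantile normalization RPL39 was -0.018, RPS4X -0.016, RPL3L -0.085 and RPL19 -0.011. Centred on the ribosomal protein genes, RPL39 was -0.075, RPS4X -0.058, RPL3L -0.0099, RPL11 -0.0092 and RPL19 -0.023. With the same centring RPS3, RPL35 and RPS21, named outside the rule, were -0.089, -0.073 and -0.021. RPL29 kept its sign there, at 0.17, but lost its call (limma adjusted p = 0.356). Leaving out 1 array moved RPL7 between -0.075 and 0.062, RPL22 between -0.12 and 0.016 and RPL3L between -0.059 and 0.32. With the brightest probe set without s or x, EIF4EBP2 was -0.083 and EIF3F 0.47. The cause was not tested. Of the other values of genes named by the rule, 659 kept direction and side of the threshold, 30 lost the call and 6 gained one. Members at background, RPL3L on all arrays and RPS4Y1 on mock arrays, give no measured fold.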

Other observations

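Probe sets that carry a ribosomal protein symbol together with another symbol were outside the rule. There were 57 of them, 51 with a small nucleolar RNA symbol, since many such RNAs lie in introns of ribosomal protein genes. They held 16 ribosomal protein symbols not among the members. Of the 57, 2 were higher on the arrays labelled MALT1 and none was lower (limma, adjusted p under 0.05), with a median log2 difference of 0.18 and a range of -0.85 to 0.48. Over all probe sets 18.6% passed as higher and 17% as lower. Of the 57, the 45 with a mean signal above 7500 ran from -0.30 to 0.46. These 45 are among the 340 other bright probe sets set beside the members above.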
